A study of Homo sapiens with 30 samples.

Results

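SIN3B-only regions were the 348 of 12864 SIN3B consensus regions (2.71%) in parental MDA-MB-231 cells that overlapped no SAP30 and no SIN3A consensus region. The deposited lists give each peak by its summit, the single base of highest enrichment. Each summit was extended by 500 bp at both sides, extended summits that shared a base were merged, and a merged region counted as consensus when it held summits of both replicates. The remaining SIN3B consensus regions overlapped SAP30 but not SIN3A (6576, 51.1%, here SIN3B/SAP30 regions), both proteins (5769, 44.8%) or SIN3A but not SAP30 (171, 1.33%). The 348 regions were thus chosen by the positions of SIN3B, SAP30 and SIN3A summits, and values from those lists are given as a description. The word "only" refers to consensus regions, since 233 of the 348 (67%) had a SAP30 summit of at least 1 replicate within reach.

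The study asked which genes SAP30 and its partners occupy and how SAP30 knockout alters their chromatin. MDA-MB-231 is an established triple-negative breast cancer cell line. SAP30, SIN3A and SIN3B were mapped by ChIP-seq (sequencing of chromatin immunoprecipitated with an antibody) in parental cells, which were not edited. RNA polymerase II (Pol II), H3K4me3 and H3K9Ac were mapped in parental and SAP30-KO1 cells. Each of these 9 groups had 2 replicate libraries. SAP30-KO1 cells were made with 1 single guide RNA by CRISPR/Cas9, and knockout cells grown from several single cells were mixed to give the line, so the comparison rests on a single knockout line. The 18 lists hold neither SAP30 nor SIN3B in SAP30-KO1 cells, so the knockout and the fate of SIN3B at these regions could not be checked. The labels do not say whether replicates were separate cultures, so tests measure the spread between libraries, which may be technical. The 18 lists held between 10861 and 54622 summits, longest for H3K9Ac, and their sequencing depth is unknown.

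SIN3A and SIN3B are related scaffold proteins without DNA-binding activity of their own. They are brought to chromatin by sequence-specific factors and histone-binding subunits, and they carry the histone deacetylases HDAC1 and HDAC2, for which the complex is known as a corepressor. SAP30 is a small subunit that binds the SIN3 scaffold. H3K4me3 marks active promoters, H3K9Ac marks active promoters and enhancers, and Pol II marks sites of transcription and pausing.

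The sequences of 5 regions show the kinds of site that fell into the group. Each is the plus strand of GRCh37 over the 151 bp centered on the highest-scoring SIN3B summit, in lower case, with matches to the motifs searched in capitals. The HIVEP2 window (chr6:143267585-143267735) and the ENSG00000286608 window (chr12:89747861-89748011) are GC-rich promoters, with a GC box (GGGCGG) in the former and an ETS motif (CCGGAAG) in the latter. The ACTN4 window (chr19:39140280-39140430) lies in an intron and was the best-ranked region with no SAP30 or SIN3A summit in reach. The PLCB3 window (chr11:64033922-64034072) covers an exon of PLCB3, holds 2 AP-1 motifs (TGANTCA) and had no mark in any library. The F2RL1 window (chr5:76110197-76110347) is intergenic, holds a TEAD motif (GGAATG) and an AP-1 motif, and lost its Pol II summits in SAP30-KO1 cells.
HIVEP2: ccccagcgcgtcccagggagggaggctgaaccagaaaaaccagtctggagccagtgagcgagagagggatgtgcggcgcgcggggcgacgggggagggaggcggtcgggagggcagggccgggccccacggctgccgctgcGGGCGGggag
ENSG00000286608: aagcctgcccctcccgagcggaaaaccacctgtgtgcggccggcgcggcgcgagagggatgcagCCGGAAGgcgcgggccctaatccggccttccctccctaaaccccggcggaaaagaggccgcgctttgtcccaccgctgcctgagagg
ACTN4: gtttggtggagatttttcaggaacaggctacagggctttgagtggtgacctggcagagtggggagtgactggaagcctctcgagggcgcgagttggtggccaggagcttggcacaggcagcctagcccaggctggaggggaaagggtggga
PLCB3: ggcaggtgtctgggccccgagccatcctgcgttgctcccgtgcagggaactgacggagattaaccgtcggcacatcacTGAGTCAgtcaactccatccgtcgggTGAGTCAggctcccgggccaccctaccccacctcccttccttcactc
F2RL1: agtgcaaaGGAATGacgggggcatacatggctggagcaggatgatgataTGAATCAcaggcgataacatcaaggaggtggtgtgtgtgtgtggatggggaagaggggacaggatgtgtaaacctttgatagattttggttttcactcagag

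SIN3B-only regions lay more often in introns, and less often at promoters, than the other SIN3B regions. A region was placed at a promoter when its span of summits came within 1000 bp of the start of a gene for a protein or a long noncoding RNA. By that measure 119 of 348 (34.2%, exact 95% binomial interval 29.2 to 39.4, counting error only) were at promoters. Introns held 147 (42.2%), intergenic sequence 61 (17.5%), exons 12 (3.45%) and 3' UTRs 9 (2.59%), and no region was placed in a 5' UTR. Promoters held 68.8% of SIN3B/SAP30 regions, 94.7% of regions with all 3 proteins and 78.9% of SIN3B/SIN3A regions. With the 500 bp extension, the promoter share of SIN3B-only regions thus lay below the intervals of the other classes. With extensions of 100 and 250 bp it was 75.9% and 66.7%, in different sets of regions. The shares of the other classes were not computed at those settings, so the contrast holds for the 500 bp extension alone. The span of summits was also shorter in SIN3B-only regions, with a median of 147.5 bp. It was 360 bp in SIN3B/SAP30 regions, 688 bp with all 3 proteins and 699 bp in SIN3B/SIN3A regions. The classes were not matched for span or SIN3B rank, and the part of these in the contrast was not tested. For the 348 regions, the promoter share was 25.3% with a promoter window of 500 bp, 60.1% with 3000 bp, and 24.1% when start sites of protein-coding genes alone were used.

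**Figure D1:**
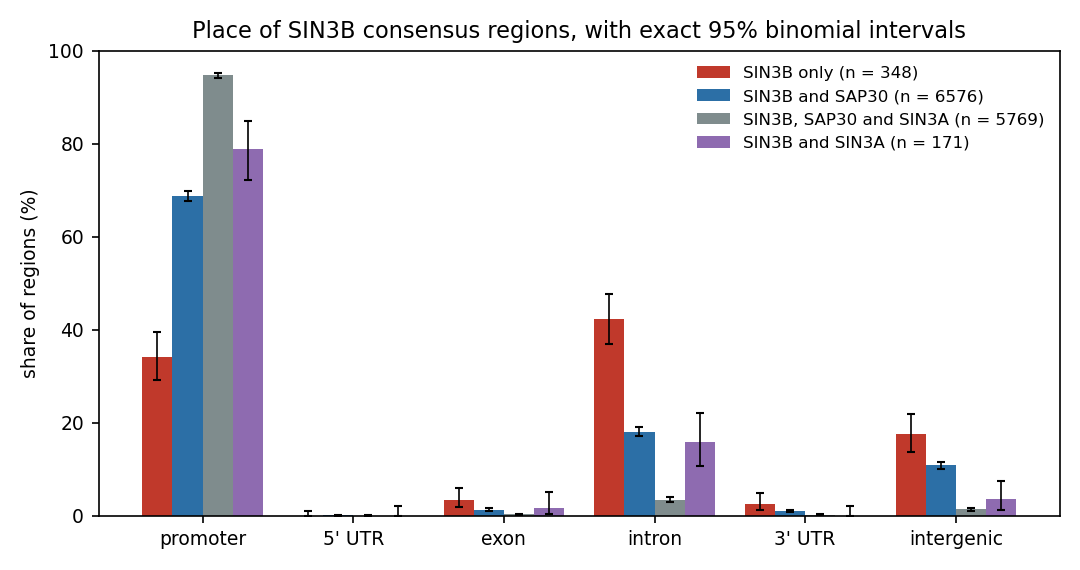
Share of SIN3B consensus regions (y axis, %) at each kind of place (x axis) for the 348 SIN3B-only regions and the 3 other classes, with exact 95% binomial intervals. SIN3B-only regions had 34.2% at promoters and 42.2% in introns, against 68.8% at promoters for SIN3B/SAP30 regions.

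The regions away from promoters were nevertheless often close to one. The 229 such regions lay a median of 5762 bp from the nearest start site, and 90 of them (39.3%) were within 3000 bp. Of those 90, 68 (75.6%) were downstream of the start, on the transcribed side. SIN3B/SAP30 regions away from promoters lay a median of 10070 bp from a start site, and 20.3% were within 3000 bp. The nearest other SIN3B region was within 3000 bp for 171 of the 348 (49.1%), compared with 14.6% of SIN3B/SAP30 regions. Many SIN3B-only regions therefore flanked another SIN3B region. Neither trait was particular to them. Away from promoters, 39.5% of regions with all 3 proteins and 88.9% of the 36 SIN3B/SIN3A regions were within 3000 bp of a start site. Another SIN3B region was within 3000 bp for 79.5% of SIN3B/SIN3A regions and 13.8% of regions with all 3 proteins.

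SIN3B-only regions ranked low among SIN3B sites. Summits were ranked by score within each list from 0% (strongest) to 100%, the score being the −log10 of the q-value, and the rank of a region was the mean over both replicates of its best summit. The median rank was 67.2% (quartiles 48.2 and 77.4), compared with 44.3% for SIN3B/SAP30 regions, 19.5% for regions with all 3 proteins and 28.6% for SIN3B/SIN3A regions. The median was 63.2% in replicate 1 and 70.6% in replicate 2. When all 12864 regions were divided into deciles by rank, the weakest decile held 163 SIN3B-only regions (46.8% of them, 12.7% of that decile) and the strongest held 2. In all, 267 (76.7%) fell in the last 3 deciles and 40 (11.5%) in the best 5. Scores were tied, with 1158 distinct values among 26307 summits in replicate 1 and 815 among 22298 in replicate 2, so small differences in rank carry no information.

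**Figure D2:**
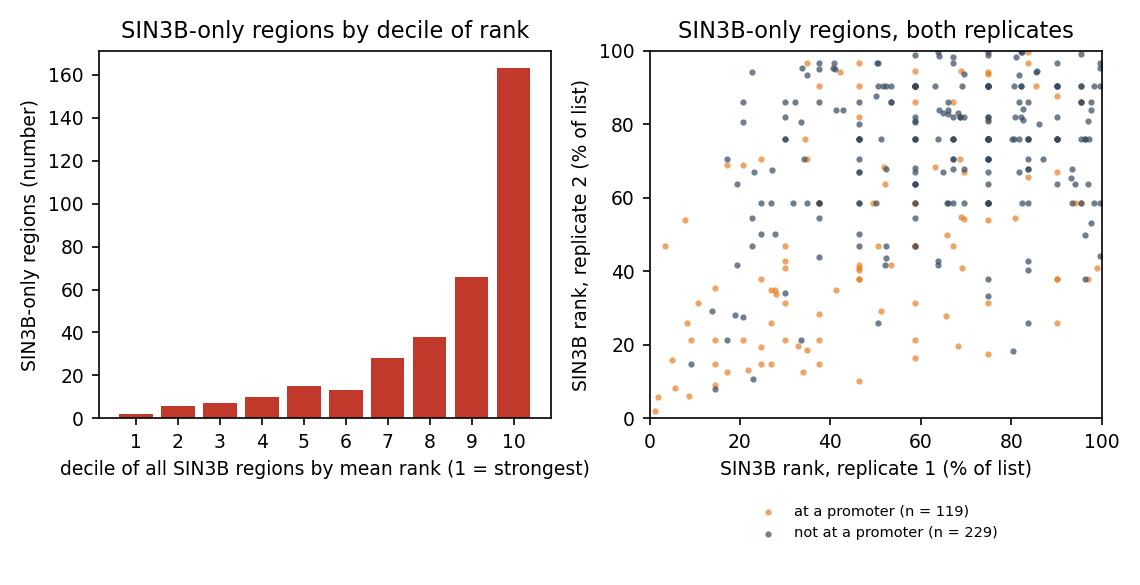
Left, number of SIN3B-only regions (y axis) in each decile of all SIN3B regions by mean rank (x axis, 1 = strongest), rising from 2 to 163. Right, SIN3B rank of each region in replicate 1 (x axis, % of list) and replicate 2 (y axis, % of list) for the 119 regions at promoters and the 229 others, with lines of points where scores were tied.

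SAP30 was detected near most of the regions in a single replicate. A summit was counted as in reach when it and the region, both extended by 500 bp, shared a base. SAP30 summits of 1 replicate were in reach of 212 regions (60.9%), of which 113 had replicate 1 and 99 had replicate 2. A further 21 regions (6.03%) had summits of both replicates that were too far apart to merge with each other. No SAP30 summit was in reach of 115 (33%). The SAP30 summits in reach had a median rank of 65.7% in replicate 1 (134 regions) and 42.5% in replicate 2 (120 regions). SIN3A summits were scarcer, with 1 replicate in reach of 43 regions (12.4%), both of 4 (1.15%) and neither of 301 (86.5%). Neither SAP30 nor SIN3A had a summit in reach of 101 regions (29%), the set closest to SIN3B alone. A nearby SAP30 summit was not particular to the group. Of the 171 SIN3B/SIN3A regions, 36.8% had SAP30 summits of 1 replicate in reach and 21.1% had summits of both. Both classes leave out, by definition, regions that overlap merged SAP30 summits of both replicates.

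The distance to SAP30 spanned a wide range. The nearest SAP30 consensus region was a median of 2545 bp away, summit to summit, within 2000 bp for 148 regions (42.5%), within 5000 bp for 219 (62.9%) and beyond 10000 bp for 92 (26.4%). Of those 92, 62 had a SAP30 summit of 1 replicate in reach, 10 had summits of both and 20 had none. The regions with no SAP30 summit in reach were, at a median of 1697 bp, closer to a SAP30 consensus region than the whole group. The farthest lay at 316649 bp, in an intron of ROBO2, an axon guidance receptor, and had a SAP30 summit of replicate 1 at 251 bp.

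**Figure D3:**
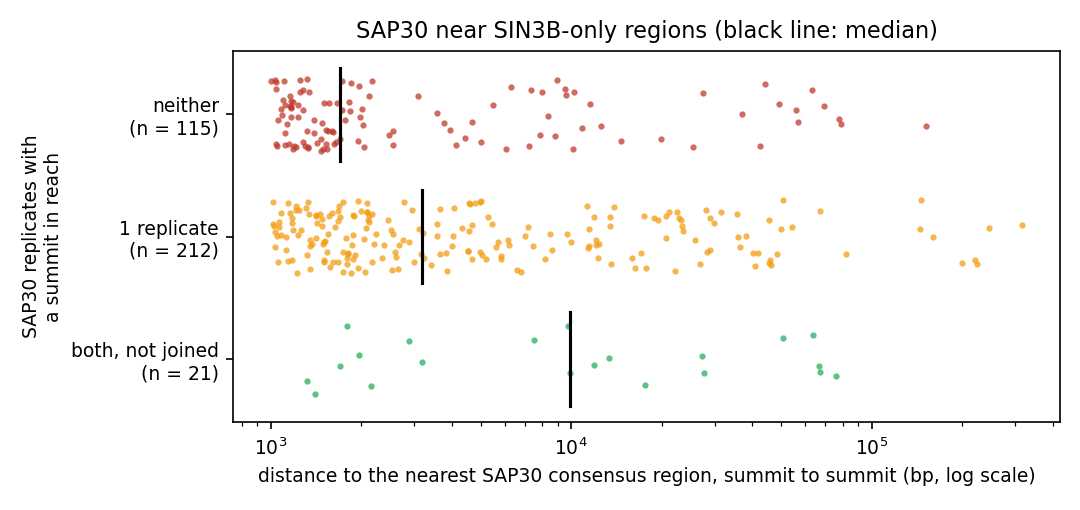
Distance from each SIN3B-only region to the nearest SAP30 consensus region (x axis, bp, log scale), by whether SAP30 summits of both, 1 or neither replicate were in reach (y axis), with medians as black lines. The 115 regions with neither crowd near 1000 bp with a median of 1697 bp, while 20 of them lie beyond 10000 bp.

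The boundary of the group was narrow at some loci. Just outside SAP30, the extended region at RGS20, a regulator of G protein signaling, missed a SAP30 consensus region by 1 bp, that at the kinesin gene KIFC1 by 15 bp and that at TAF1D, a Pol I initiation factor, by 17 bp. Just inside, SIN3B/SAP30 regions shared 5 bp with SAP30 at FSCN1, which encodes the actin-bundling protein fascin, 12 bp at ENSG00000286171 and 14 bp at the translation factor gene EIF4G2. Gaps of at most 100 bp applied to 21 SIN3B-only regions, and 12 SIN3B/SAP30 regions shared at most 100 bp. With extensions of 100, 250 and 1000 bp in place of 500 bp, the group numbered 4099, 2115 and 156 regions. The number of regions thus depended strongly on the window.

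The strongest SIN3B-only regions were mainly promoters with some SAP30 nearby. The best was at the promoter of MED6, a Mediator subunit (chr14:71065561-71067823, first to last summit), with SIN3B ranks of 1.24% and 1.94%, SIN3B scores of 43.5 and 35.8, and a SAP30 summit of replicate 2 alone, ranked 76.5%. Its Pol II summits ranked 40.7% and 38.7% in parental and 28.8% and 42.1% in SAP30-KO1 cells, and a rank is relative to its own list. PRR3, GEMIN7-AS1, C1orf109, CFL1, PRR12, ENSG00000286608 and ATG4B also had their regions at promoters. CFL1 encodes the actin-severing protein cofilin and ATG4B a protease of autophagy. Their mean SIN3B ranks ran from 3.92% at PRR3 to 14.9% at ATG4B. The CFL1 and PRR12 regions had SIN3A summits of both replicates in reach. SAP30 summits of both replicates were in reach at PRR3 and PRR12. At PRR12 they lay within the span of the region and ranked 17.8% and 11.4%. The PRR3, GEMIN7-AS1 and ATG4B regions had a SIN3A summit of replicate 2, and the ATG4B region had no SAP30 summit.

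The other 2 of the 10 best-ranked regions were in introns. The ACTN4 region (chr19:39140323-39141489), in the gene of the actin cross-linker alpha-actinin 4, ranked 14.5% and 7.93% and lay 1945 bp downstream of the start site. It had weak Pol II summits, ranked 93% in parental replicate 1 and 91.8% in SAP30-KO1 replicate 1, and no H3K4me3 or H3K9Ac in any library. The region in FGFR1, a receptor tyrosine kinase, lay 1828 bp downstream of its start and ranked 9.16% and 14.8%. Pol II summits ranked 85.8% and 81.4% were in reach in the parental libraries, and none in the SAP30-KO1 libraries.

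At the next promoters by rank, SAP30 summits of both replicates were in reach in 4 of 5 cases. These were HIVEP2, a zinc finger transcription factor gene, PHF23, MIF4GD-DT and ATXN7L3, which encodes a subunit of the SAGA deubiquitinase module. At HIVEP2 the region held 9 SIN3B summits. SAP30 summits ranked 14.7% in replicate 1 and 10.5% in replicate 2 lay at 93 bp and 0 bp from its span. SIN3A summits of both replicates were also in reach at HIVEP2, and 1 of replicate 1 at MIF4GD-DT. The fifth, ETFB, a subunit of the mitochondrial electron transfer flavoprotein, had no SAP30 or SIN3A summit in reach, SIN3B ranks of 14.5% and 21.3%, and all 3 of Pol II, H3K4me3 and H3K9Ac in every library.

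Among the 101 regions with neither SAP30 nor SIN3A in reach, the best ranked after ACTN4 were at ACTG1, which encodes gamma-actin, ETFB, LRR1, BCAN-AS2 and the clathrin adaptor gene AP2S1, at mean SIN3B ranks from 16.8% to 26.4%. These regions were picked after their values were seen. All 5 lay between 1040 bp and 1250 bp from the nearest SAP30 consensus region, next to the reach of the window. Of the 101 regions, 48 lay over 2000 bp and 20 over 10000 bp from SAP30. The best ranked of the 20, also chosen after the values were seen, were an intron of COL26A1 near LINC01007, the promoter of the zinc finger gene ZNF311, an intron of FRMD6, the promoters of GP6-AS1 and LINC01347, and intergenic sequence near PGM1. Their mean ranks were 41.7% to 63.6%. H3K9Ac was in all 4 libraries at 14 of the 20, H3K4me3 at 3 and Pol II at 1.

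The nearest genes showed little repetition. The 348 regions had 340 nearest genes, of which 233 regions were nearest to a protein-coding and 115 to a long noncoding RNA start site. Only ABALON, CREB3L1, EHF, F2RL1, FGFR1, PVT1, SH3BP4 and SYT12 had 2 regions each. At F2RL1, which encodes protease-activated receptor 2, both regions were intergenic, ranked 75.5% and 77%, with Pol II summits in both parental libraries and none in SAP30-KO1 cells. At FGFR1, one region was in the intron and the other at the promoter. The ETS factor gene EHF had 1 at a promoter and 1 in an intron. Linked within 100000 bp of each other, the regions formed 319 groups, 29 of which were pairs and none larger. The 6576 SIN3B/SAP30 regions formed 622 groups of 3 or more, and the 171 SIN3B/SIN3A regions formed 4. Such counts depend on the number of regions, which was not matched. SIN3B-only regions were spread over every autosome and chromosome X, from 1 of 235 SIN3B regions on chromosome 13 (0.426%) to 17 of 411 on chromosome 20 (4.14%).

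Genes of the lists examined for SIN3 biology rarely had a SIN3B-only region at a promoter, as was true of all genes. In all, 90 of 20090 protein-coding genes (0.448%) had a SIN3B-only region at a promoter, and for 45 of them it was the sole SIN3B consensus region there. None of the 9 genes followed by the study (PDGFB, PDGFD, CLDN1, RDX, ADM2, NOTCH3, ARTN, IPO13 and HSPA6) had one, although 3 had a SIN3B region of another class. None of 20 SIN3 complex subunits (18 with SIN3B), 7 MXD and MAX partners (6), 20 neuronal genes with REST sites (2), 20 E2F and cell cycle genes (19), 9 AP-1 genes (6) or 83 histone genes (29) did either. Of 515 zinc finger genes, 394 had SIN3B at a promoter and 2, ZNF311 and ZNF585A, had a SIN3B-only region. Beside the 0.448% of all protein-coding genes, nothing is read from these counts.

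The regions were less rich in G, C and CpG than the other classes. In the 300 bp around the best summit, the median G and C content was 54.7% (quartiles 48.2 and 61.7), compared with 62.7% in SIN3B/SAP30 regions. The median ratio of observed to expected CpG was 0.337 compared with 0.714. Windows with more than 55% G and C and a ratio over 0.6 made up 22.4% of SIN3B-only and 56.4% of SIN3B/SAP30 regions. The same order was seen within each kind of place. At promoters the medians were 62% and 0.664, compared with 65.3% and 0.8, and away from promoters 52.3% and 0.249, compared with 57% and 0.319. The quartiles of SIN3B-only and SIN3B/SAP30 regions overlapped in each case. Those of regions with all 3 proteins, 62.3% to 72.7% and 0.726 to 0.95, lay above the SIN3B-only quartiles of 48.2% to 61.7% and 0.179 to 0.612.

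**Figure D4:**
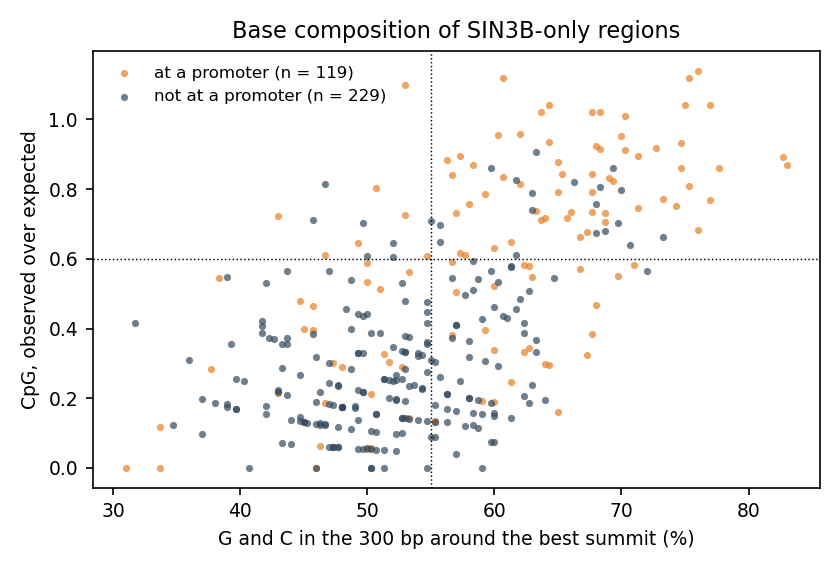
G and C content (x axis, %) and ratio of observed to expected CpG (y axis) in the 300 bp around the best summit of each SIN3B-only region, 119 at promoters and 229 not, with dotted lines at 55% and 0.6. Of the regions at promoters 50.4% lie in the upper right field, compared with 7.86% of the others.

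Short motifs were counted in the same windows on both strands. At promoters, a GC box (GGGCGG, bound by SP and KLF factors) was in 49.6% of SIN3B-only regions (exact 95% interval 40.3 to 58.9) and 61.5% of SIN3B/SAP30 regions (60 to 62.9). The ETS motif (CCGGAAG) was in 6.72% (2.95 to 12.8) and 19.8% (18.6 to 21). Away from promoters, the GC box was in 16.6% (12 to 22.1) and 28.1% (26.2 to 30.1), and the intervals were again apart. The AP-1 motif (TGANTCA), as in the PLCB3 and F2RL1 windows, was in 26.6% (21 to 32.9) and 34.8% (32.7 to 36.9), with overlapping intervals. The TEAD motif (GGAATG) was in 23.6% and 22.5%. The right arm of the REST motif (GGACAGC) was in 2.62% (0.967 to 5.62) and 7.99% (6.86 to 9.25).

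Over all windows without regard to place, the share of SIN3B-only regions and of all 12864 SIN3B regions was 27.9% and 58.3% for the GC box, 4.31% and 17.1% for ETS, 20.1% and 10.5% for AP-1, and 19.8% and 12.8% for TEAD. It was 29% and 26% for the CCAAT box (CCAAT), 12.4% and 15.8% for the CTCF core (AGGGGGC), and 7.47% and 9.73% for the E-box (CACGTG) bound by MYC, MAX and MXD proteins. The YY1 (AAGATGG), cyclic AMP response element (TGACGTCA), E2F (GGCGGGAA), REST left arm (TCAGCACC) and REST right arm motifs were each in under 5% of SIN3B-only regions. Away from promoters the AP-1 share was 26.6% compared with 32.9% of all such SIN3B regions, and at promoters 7.56% (3.52 to 13.9) compared with 4.81%. GC box and E2F matches can overlap. A match describes these letters only and is no evidence of binding.

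Repeated sequence was uncommon. Every 24-base word of the window occurred at a single place in GRCh37 for 238 regions (68.4%), compared with 76.8% of SIN3B/SAP30 regions. At least 50% of the words occurred at 10 or more places for 7 regions (2.01%) and 0.821%. Away from promoters these shares were 2.62% (6 of 229) and 1.95%, and at promoters 0.84% (1 of 119) and 0.309%. The 7 were nearest to DCBLD2, ENSG00000287287, RPL7L1, ENSG00000225807, ENSG00000286602, DDX6 and NUP155, and were named after their values were seen. The highest share of such words was 71.1% at ENSG00000225807, and NUP155 had 55.6%.

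SIN3B-only regions carried Pol II and active marks less often than SIN3B/SAP30 regions. A mark was counted in a library when a summit of it was in reach by the same rule. In parental replicates 1 and 2, Pol II was at 36.5% and 43.1% of SIN3B-only regions and at 80.9% and 84.5% of SIN3B/SAP30 regions. H3K4me3 was at 43.7% and 40.2%, compared with 81.4% and 81.2%. H3K9Ac was at 71.3% and 75%, compared with 95.8% and 96%. The lower share was seen in every library of both lines. Both parental libraries held Pol II at 109 of 348 (31.3%, against 85.4% of all SIN3B regions), H3K4me3 at 128 (36.8%, against 86%) and H3K9Ac at 227 (65.2%, against 94.7%). These shares depended on the rule for the group. For Pol II it was 79.9% with an overlap of at least 50% and 83.8% with SAP30, SIN3A and SIN3B lists of equal length. Those settings draw other regions, and the SIN3B/SAP30 share was not computed at them.

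The difference was smaller, but of the same sign, when rank and place were matched. Over the 4 libraries of each antibody, the share in SIN3B-only minus SIN3B/SAP30 regions averaged, for Pol II, -40.42 ± 3.16 percentage points (SD over libraries), -39.56 ± 1.66 for H3K4me3 and -23.46 ± 1.69 in the H3K9Ac libraries. Weighting SIN3B/SAP30 regions to the same deciles of SIN3B rank and the same kinds of place gave -20.31 ± 5.41, -19.08 ± 1.86 and -20.06 ± 1.59. An exact sign-flip test over the 4 libraries, two-sided, gave p = 0.125 for each of the 6 differences, the smallest p that 4 libraries allow. All 4 libraries showed the direction in each case. The wider span of SIN3B/SAP30 regions, a median of 360 bp between outer summits compared with 147.5 bp, gives a summit more room to be in reach, and its part in the difference was not tested.

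The mark that most often stood alone was H3K9Ac. In both parental libraries, H3K9Ac without Pol II or H3K4me3 was found at 106 SIN3B-only regions (30.5%), compared with 11.3% of SIN3B/SAP30 regions. All 3 together were at 59 (17%) compared with 71.9%, and none of the 3 at 74 (21.3%) compared with 2.84%. The parental H3K9Ac lists held 54622 and 53651 summits, and the parental Pol II and H3K4me3 lists between 20736 and 24079. These shares were not matched for list length or place. The marks followed place. H3K4me3 was in both parental libraries at 74 of 119 regions at promoters (62.2%) and 54 of 229 others (23.6%), and Pol II at 66 (55.5%) and 43 (18.8%). H3K9Ac differed less, at 82 (68.9%) and 145 (63.3%), with overlapping intervals.

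Pol II and both marks were more often in reach where SAP30 had a summit of 1 replicate than where it had none. At the 115 regions with no SAP30 summit in reach, the 4 Pol II libraries in the order parental 1, parental 2, SAP30-KO1 1 and SAP30-KO1 2 had summits at 27.8%, 30.4%, 32.2% and 27%. At the 212 regions with a SAP30 summit of 1 replicate they had 36.3%, 45.3%, 37.7% and 34.9%, higher in every library. H3K4me3 was also higher in every library at the 212 regions, though barely so in SAP30-KO1 replicate 1. It was at 39.1%, 35.7%, 35.7% and 34.8% of the 115 compared with 41.5%, 37.7%, 35.8% and 40.6% of the 212. A difference between the marks in this respect was not tested. H3K9Ac was at 61.7%, 65.2%, 63.5% and 62.6% compared with 75%, 78.8%, 73.6% and 74.5%. At the 20 regions with neither SAP30 nor SIN3A in reach and over 10000 bp from SAP30, H3K9Ac was at 80%, 85%, 85% and 80%. At the 21 regions with unmerged SAP30 summits of both replicates, Pol II was at 85.7%, 90.5%, 76.2% and 85.7%. Those 21 were mostly promoters (76.2%) and ranked higher for SIN3B (median 36.4%). The sets of 212 and 115 regions had similar median SIN3B ranks (68% and 68.1%) and promoter shares (30.2% and 33.9%). The part of rank and place in the values of the 21 regions was not tested.

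At 22 regions (6.32%) no summit of Pol II, H3K4me3 or H3K9Ac was in reach in any of 12 libraries, compared with 0.532% of SIN3B/SAP30 regions. The best ranked lay in an exon of PLCB3, a phospholipase C gene (SIN3B ranks 46.4% and 67%), at the promoter of ENSG00000273154 inside ZGPAT (51.9% and 68.5%), in the 3' UTR of C8orf33 (41.3% and 83.8%), in the 3' UTR of MTA2, which encodes a subunit of the NuRD complex (46.4% and 80.1%), and in intergenic sequence 19494 bp downstream of the GPR132 start (58.7% and 68%). The PLCB3 and MTA2 regions had a SAP30 summit of replicate 2 in reach, and that near GPR132 one of replicate 1. All 5 were in deciles 8 and 9 of SIN3B rank.

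For none of the 3 shares did the knockout line differ from parental cells by more than the spread between replicates. In SAP30-KO1 replicates 1 and 2, Pol II was at 38.2% and 35.3% of SIN3B-only regions, H3K4me3 at 39.1% and 41.4%, and H3K9Ac at 71.3% and 71.8%. The parental and SAP30-KO1 values overlapped for each. The mean differences, SAP30-KO1 minus parental, were -3.02 percentage points in Pol II (exact permutation p = 0.667, two-sided, 2 against 2 libraries), -1.72 in H3K4me3 (exact permutation p = 0.667) and -1.58 in H3K9Ac (exact permutation p = 1). The smallest p this design allows is 0.33. The H3K9Ac lists were shorter in SAP30-KO1 cells (50862 and 50807 summits) than in parental cells (54622 and 53651), and with lists of equal length the H3K9Ac difference was -0.14. With its 4 lists at equal length the H3K4me3 difference was also -0.14, and that of Pol II stayed at -3.02.

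For Pol II the lines stood in opposite order at promoters and away from them. At the 119 regions at promoters, Pol II was at 61.3% and 67.2% in parental and 68.9% and 70.6% in SAP30-KO1 replicates, higher by 5.46 percentage points with no overlap (exact permutation p = 0.333). At the 229 others it was at 23.6% and 30.6% in parental and 22.3% and 17.0% in SAP30-KO1 replicates, lower by 7.42 with no overlap (exact permutation p = 0.333). SIN3B/SAP30 regions were lower in SAP30-KO1 at both, with a difference of -4.66 at promoters and -15.20 elsewhere. SIN3B/SIN3A regions were higher at both, by 3.70 at promoters (n = 135) and 8.33 elsewhere (n = 36), with no overlap. The higher share at promoters was thus not particular to SIN3B-only regions. For SIN3B-only regions, the difference at promoters kept its sign in 20 of 23 alternatives. In these it ran from 0.24 with a promoter window of 3000 bp to 17.86 with no SAP30 or SIN3A summit of either replicate. It was 0.66 without SIN3B replicate 2. The lines overlapped there with the 4 Pol II lists at equal length (3.78, exact permutation p = 0.667). A promoter window of 500 bp gave 2.84, also with overlap (exact permutation p = 0.667). They overlapped as well with the window of 3000 bp, with protein-coding start sites alone (3.57) and without SIN3B replicate 2. The difference at promoters turned to -6.00 with an extension of 1000 bp, -0.41 with an overlap of at least 50% and -3.55 with SAP30, SIN3A and SIN3B lists of equal length. The difference away from promoters kept its sign in all 23 and ran from -20.51 to -3.39. Away from promoters the lines overlapped with an extension of 100 bp, with promoter windows of 500 and 3000 bp and with protein-coding start sites alone.

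**Figure D5:**
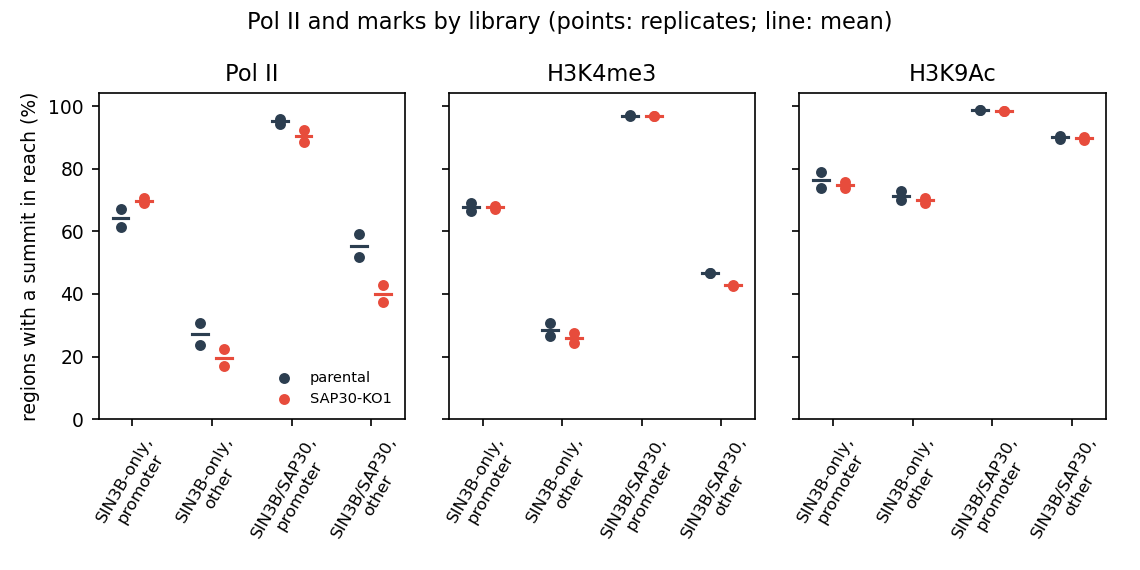
Share of regions with a summit in reach (y axis, %) of Pol II, H3K4me3 and H3K9Ac (panels) in each parental and SAP30-KO1 library (points, with lines at the mean of 2) for SIN3B-only regions and SIN3B/SAP30 regions, at promoters and elsewhere (x axis). Pol II at promoter SIN3B-only regions is 61.3% and 67.2% in parental and 68.9% and 70.6% in SAP30-KO1 libraries, and every SIN3B-only share lies below its SIN3B/SAP30 counterpart.

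Single regions that lost or gained a mark were few. A loss was a summit in both parental and neither SAP30-KO1 library, and a gain the reverse. Pol II was lost at 17 of 109 SIN3B-only regions (15.6%, against 2.73% of all SIN3B regions) and gained at 11 of 180 (6.11%, against 4.13%). H3K4me3 was lost at 3 of 128 (2.34%, against 0.542%) and gained at 2 of 184 (1.09%, against 1.3%). H3K9Ac was lost at 9 of 227 (3.96%, against 0.271%) and gained at 8 of 66 (12.1%, against 10.8%). Gains of H3K4me3 and H3K9Ac were near the share of all SIN3B regions. In SIN3B/SAP30 regions Pol II was lost at 4.8% and gained at 1.88%. It was lost at 0.577% and gained at 13.3% of regions with both SAP30 and SIN3A. In SIN3B/SIN3A regions it was lost at 0.769% and gained at 28.6% (6 of 21). Losses and gains of Pol II, H3K4me3 and H3K9Ac were not split by place. The summits of all 3 at SIN3B-only regions were weaker than those at SIN3B/SAP30 regions, with median parental ranks of 56.3% and 53.3% compared with 37.9% and 35% for Pol II, 41.1% and 46.1% compared with 32.2% and 34.7% for H3K4me3, and 29.4% and 30.5% compared with 16.2% and 16.8% for H3K9Ac, and the part of this in the losses was not tested.

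Pol II was lost at the promoter of SLC1A5, a glutamine transporter, where the parental summits ranked 59.5% and 49.9%, and at the promoter of C4orf33, where they ranked 65.6% and 53.8%. H3K4me3 and H3K9Ac stayed in all 4 libraries at C4orf33. Near F2RL1, 4583 bp upstream of its start, Pol II summits ranked 62% and 75.3% were lost while H3K9Ac stayed, at 26.8%, 26.3%, 25.4% and 29.6% over parental and SAP30-KO1 replicates. Pol II was gained at the promoters of TOB1, an antiproliferative gene (SAP30-KO1 ranks 11.8% and 19.7%), SAFB, a nuclear scaffold attachment factor (23.4% and 23.9%), and HNRNPF, a splicing regulator (37.9% and 17.1%). None of these 3 had a SAP30 summit in reach, and each was within 1480 bp of a SAP30 consensus region. ENSG00000286608, whose sequence is shown above, also had Pol II in SAP30-KO1 libraries alone, ranked 48.5% and 48.8%, with H3K9Ac ranked between 0.318% and 1.02% in all 4 libraries.

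H3K4me3 was lost in an intron of ROBO1, an axon guidance receptor gene (parental ranks 81.6% and 79.9%), in an intron of the nucleoporin gene NUP155 (81.1% and 92.1%) and near ENSG00000289000 (84.1% and 97.4%). It was gained upstream of SLC43A3 (SAP30-KO1 ranks 88.6% and 92.3%) and in THBS1 (97.2% and 84.3%). All 5 were weak summits near the end of their lists. H3K9Ac was lost at the promoter of SMAD7, an inhibitor of TGF-β signaling (parental ranks 31.2% and 40.8%), and at the promoter of ENSG00000241269 inside TNRC18 (55.3% and 34.7%). It was gained at the promoters of STX16, a SNARE protein gene (SAP30-KO1 ranks 0.325% and 1.71%), and of the ribosomal protein gene RPS9 (16.5% and 4.98%), and near ENSG00000258976 (31.5% and 27%). Each of these ranks is that of the best summit in reach, and summits just beyond the reach were not counted.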

How the data were processed

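ChIP-seq libraries were grouped by antibody and cell line as given in the labels. Inputs and total histone H3 were not analysed here. Per the submitters' processing notes, the authors used FastQC 0.11.2, Bowtie2 2.3.3.1, Picard and MACS2 2.1.0 on hg19. The deposited files are MACS2 summit lists of 1 library each, with summits 1 bp wide and the −log10 q-value as score, reaching down to 1.302. MACS2 options, the control behind each list and depth are not given in the sources used here, so scores served only for ranks within a list.

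Consensus regions, reach and classes were built as defined with the results, on autosomes and chromosome X. Start sites were from GENCODE 44 lifted to GRCh37. Shares per library were compared by exact permutation (2 against 2), by exact sign-flip across 4 libraries, and with Clopper-Pearson intervals, which cover counting error only. Python 3 code used NumPy, SciPy and pysam and was tested on simulated lists. Named regions were the 10 best ranked, the next 5 at promoters, the 5 best without marks, at most 3 lost and 3 gained per mark, and those nearest the edge. The result of 1 region and 1 sequence that this rule named are not reported here. The members and lists were chosen with earlier results of these data known. GRCh37 was not repeat-masked, so copies of 24-base words stood in for repeats. Alternatives were other extensions, overlaps, promoter windows, list lengths and left-out libraries.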

Additional observations from a re-analysis of the deposited data

Results flagged for a closer look

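The following results were singled out because every library of the knockout lay on one side of every parental library in one set of regions and on the other side in the second set. The change in Pol II share, SAP30-KO1 minus parental, was 5.46 percentage points at promoter SIN3B-only regions (n = 119) and -7.42 at those away from promoters (n = 229), a difference of 12.88 (exact permutation p = 0.333). Leaving out 1 library at a time moved the former to between 0.66 and 10.48 and the latter to between -10.92 and -3.93, and a promoter window of 3000 bp gave 0.24 and -7.91. Against promoter SIN3B/SAP30 regions, at -4.66, the difference was 10.12 (exact permutation p = 0.333). Against promoter regions with all 3 proteins, at -1.33, it was 6.79 (exact permutation p = 0.333). Promoter SIN3B/SIN3A regions (n = 135) moved the same way as promoter SIN3B-only regions, at 3.70, so the rule did not pick that contrast. Away from promoters, SIN3B-only regions at -7.42 and the 36 SIN3B/SIN3A regions at 8.33 differed by -15.75 (exact permutation p = 0.333). Each p tests the difference itself over 2 against 2 libraries and is two-sided. Contrasts picked by this rule always give the smallest p the design allows, so these p-values add no support. These 4 contrasts share the same Pol II libraries, and no result of this kind was found for H3K4me3 or H3K9Ac. Groups of 2 libraries were too small to look for a library that stands apart.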

How the results depend on the processing

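The definition of the group moved most values. The number of regions was 4099, 2115 and 156 with extensions of 100, 250 and 1000 bp, 1720 with an overlap of at least 50%, 101 with the better-ranked 50% of each SIN3B list, 101 with no SAP30 or SIN3A summit of either replicate, and 1001 with the 3 proteins' lists at equal length. In the same order of settings, the promoter share was 75.9%, 66.7%, 16%, 77.3%, 61.4%, 27.7% and 74.5%. It was 25.3% and 60.1% with promoter windows of 500 and 3000 bp and 24.1% with protein-coding start sites. The share with a SAP30 summit of 1 replicate was 32.3%, 45.2% and 73.1% for the 3 extensions, 15.6% with the overlap of 50% and 52% with lists of equal length. The median SIN3B rank was 51.4%, 54.1% and 74.2% for the 3 extensions, 31.9% with the overlap of 50%, 26.6% with the better-ranked 50% and 24% with lists of equal length. The share with Pol II in both parental libraries was 38.1% and 18.6% with extensions of 250 and 1000 bp, 79.9% with the overlap of 50%, 58.4% with the better-ranked 50%, 16.8% with no summit of either replicate and 83.8% with lists of equal length. For H3K4me3 it was 17.8% and 25% with 100 and 1000 bp, 81.3%, 49.5%, 25.7% and 81.8% in the same order. For H3K9Ac it was 19.3%, 43.2% and 80.1% for the 3 extensions, 89.4% with the overlap of 50%, 50.5% with no summit of either replicate and 91.2% with lists of equal length. Each of these settings draws a different set of regions. The cause was not tested.

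The SAP30-KO1 minus parental difference in Pol II turned to 4.77 and 0.92 percentage points with extensions of 100 and 250 bp and was 0.00 with no SAP30 or SIN3A summit of either replicate. For H3K4me3 it turned to 1.13 and 1.37 with 100 and 250 bp, 2.97 with the better-ranked 50% and 0.30 with lists of equal length. For H3K9Ac it was 0.00 with no summit of either replicate. Pol II at promoter regions, whose alternatives were chosen after seeing the data, turned to -6.00 with 1000 bp, -0.41 with the overlap of 50% and -3.55 with lists of equal length. The cause was not tested.

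Leaving out each library in turn gave 233 (without SAP30 replicate 1) to 2443 (without SIN3B replicate 2) regions, with 1385 without SIN3B replicate 1, promoter shares of 15.4% to 39.8%, shares with a SAP30 summit of 1 replicate of 43.7% to 61.7% and median ranks of 63.3% to 76%. Shares in both parental libraries ran from 15.6% to 32.6% for Pol II, 16% to 36% for H3K4me3 and 49.1% to 64.3% for H3K9Ac. Differences ran from -6.32 to 0.29 for Pol II, where the sign turned without parental replicate 2, from -3.45 to 0.00 for H3K4me3, where the difference vanished without parental replicate 1, and from -3.45 to 0.29 for H3K9Ac, where the sign turned without parental replicate 2. For Pol II at promoter regions the range was 0.66 (without SIN3B replicate 2) to 10.48 (without SAP30 replicate 1), and away from promoters -10.92 (without parental replicate 1) to -3.93 (without parental replicate 2). Replicates share only a number in the labels. With the replicate number as a block, the differences were -3.02, -1.72 and -1.58 for Pol II, H3K4me3 and H3K9Ac (exact sign-flip p = 1 each), and 2 pairs allow no p below 0.5. Sequencing depth is unknown, and a SAP30 peak listed in 1 replicate alone makes no consensus region. The part of depth in the number of regions was not tested.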
